A study of Mus musculus with 8 samples.

Results

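Genes of activin and TGF-beta signaling were examined in cultured hepatic macrophages, together with *Tgfbi*, a matrix gene named for its induction by TGF-beta. The 10 genes were *Inhba*, *Tgfb1*, *Tgfb2*, *Tgfbr1*, *Tgfbr2*, *Acvr1b*, *Smad3*, *Smad7*, *Skil* and *Tgfbi*, and each was found by its symbol in 1 row of the 55401 genes of the deposited table. *Inhba* and *Tgfbi* were chosen by their measured levels, which differed greatly between these libraries, so their values are given as a description without a test. The other 8 were taken as parts of the same pathway and were tested.

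Macrophages were isolated from livers of C57BL/6J mice with antibodies to F4/80 and magnetic columns, and were cultured on collagen. They came either from wild-type (WT) mice on a standard diet (normal livers) or from MC4R-KO mice, which lack the melanocortin 4 receptor, on a Western diet for 6 to 10 wk (steatotic livers), and the ages of the mice were not in the labels. The cells of each liver type received vehicle (Veh) or cholesterol crystals (CC, 500 μg/ml) for 24 h, with 2 poly(A) RNA-seq libraries in each of the 4 groups. Genotype and diet always changed together, so their contributions cannot be told apart, and the labels did not say whether the 2 libraries of a group came from separate mice or cultures. P-values therefore measure only the spread between these libraries, which may be technical. *Mc4r* had 0 counts in the 4 libraries labelled normal, which by itself need not go against that label. In those labelled steatotic it had 28 and 22 counts with Veh and 53 and 72 with CC. These are about 5.5 to 18 fragments at the 4 counts per fragment inferred from the table. The counts with the label steatotic go against that label, unless a disrupted allele can still be read, and they rest on few fragments. The text therefore speaks of libraries labelled normal or steatotic, and every direction between livers depends on those labels. Total counts were 58668655 to 74529462 per library. Levels are given as CPM, counts scaled to the library total and to TMM, a factor that adjusts for library composition. Because 1 sequenced fragment appeared to stand for about 4 counts, 3 fragments, the limit that a count of 0 allows, correspond to 0.161 to 0.205 CPM, which covers counting error only.

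Activins and the TGF-betas are secreted dimers that assemble a complex of receptor kinases at the cell surface. A type II receptor, such as the product of *Tgfbr2*, activates a type I receptor, such as that of *Tgfbr1* for TGF-beta or *Acvr1b* for activin, which phosphorylates the receptor-regulated SMAD proteins. These enter the nucleus with a shared partner and change transcription, while inhibitory SMADs and nuclear corepressors dampen the response. In the liver, TGF-beta is best known for driving stellate cells to make collagen, and macrophages are one of its sources.

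The sequences just upstream of *Inhba* and *Tgfbi*, whose levels changed most, were read from the RefSeq promoter table for GRCm38.p6 (the mm10 build). They are printed up to the base before the annotated gene, 5′ to 3′, with the letters that matched a searched motif in capitals.

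*Inhba*, chr13:16011601-16011850, plus strand: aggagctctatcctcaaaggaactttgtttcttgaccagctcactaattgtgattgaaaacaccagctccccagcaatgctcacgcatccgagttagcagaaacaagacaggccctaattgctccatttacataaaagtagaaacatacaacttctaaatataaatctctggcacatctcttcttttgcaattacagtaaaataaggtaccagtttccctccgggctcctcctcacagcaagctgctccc
*Tgfbi*, chr13:56609336-56609522, plus strand: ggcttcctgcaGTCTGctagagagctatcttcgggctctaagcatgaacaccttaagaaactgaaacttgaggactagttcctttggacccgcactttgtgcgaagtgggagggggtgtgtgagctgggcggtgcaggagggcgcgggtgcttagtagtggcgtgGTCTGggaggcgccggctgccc

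The capitals mark CAGAC, read here from the other strand, a core bound by SMAD proteins. It stood at −239 and −85 from the RefSeq start of *Tgfbi* and nowhere in the 250 bases before *Inhba*, and 42.2% of the 32851 promoter windows of this length held it. The other searches, on both strands with overlaps allowed, were TGANTCA (AP-1, in 6.75% of windows), GTCTAGAC (the SMAD palindrome, 0.167%), GCGNGGGCG (EGR factors, 4.7%), TCACGTGA (MiT/TFE factors, 0.785%) and TGACGTCA (CRE, 1.55%), and none of these was found before *Inhba* or *Tgfbi*. The window of *Inhba* had 43.2% G and C and that of *Tgfbi* 62.4%. Among the other members with a window, the EGR letters lay before *Tgfb1* (at −122), *Acvr1b* (at −21) and 1 of the 2 starts of *Tgfbr1* (at −192), and CAGAC before *Tgfb2*, *Tgfbr2* and the other start of *Tgfbr1*. Such matches describe letters and are not binding sites.

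*Inhba* encodes the beta A subunit, 2 copies of which form activin A. In the deposited table it is ENSMUSG00000041324.14, on chromosome 13 of GRCm38 from 16011851 to 16031621 on the plus strand. With the label normal its level was 6.37 and 8.21 CPM with Veh and 47.3 and 43.7 CPM with CC. With the label steatotic it was 9.89 and 7.33 CPM with Veh, overlapping the range of the normal Veh libraries. With CC it reached 318 and 241 CPM, above all the other libraries. The fitted change with CC was 2.64 on the log2 scale (6.24-fold) with the label normal and 5.02 (32.5-fold) with the label steatotic, a difference of 2.38. The change with CC kept its direction under all alternatives, from 2.47 to 2.84 with the label normal and from 4.81 to 5.25 with the label steatotic. Of the 15202 tested genes, 86 had a larger log2 fold change with CC with the label normal and 50 with the label steatotic. *Inhba* was chosen for its large change, so these ranks and the kept direction add no evidence. A pair of genes on the other strand, *B230303A05Rik* and *Gm48444*, lay in its introns, shared no exon base with it and did not exceed 0.214 CPM.

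*Tgfb1* encodes the main TGF-beta of immune cells, secreted in a latent form. It was at 271 to 313 CPM in all 8 libraries. Its group means were 299 ± 2.80 (SD, n = 2) and 282 ± 4.18 CPM with the label normal, with Veh and CC, and 306 ± 10.7 and 282 ± 14.8 CPM with the label steatotic. The log2 difference between the livers with Veh was 0.03 (95% interval −0.08 to 0.14, adjusted p = 0.637 by edgeR's quasi-likelihood test with Benjamini-Hochberg adjustment over the 15202 genes, used for every adjusted p). With CC it changed by −0.08 (−0.19 to 0.03, adjusted p = 0.321) with the label normal and by −0.12 (−0.23 to −0.01, adjusted p = 0.119) with the label steatotic. No comparison of *Tgfb1* passed the threshold of 0.05. *Tgfb2*, another TGF-beta ligand, was near the limit of detection at 0.256 to 1.26 CPM. Its intervals were wide, from −0.37 to 2.10 on the log2 scale for steatotic against normal with Veh (adjusted p = 0.265), so no difference was detectable for this gene with these libraries. It also shares 124 exon bases with the antisense gene *Gm29491*, which had 0 counts.

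**Figure D1:**
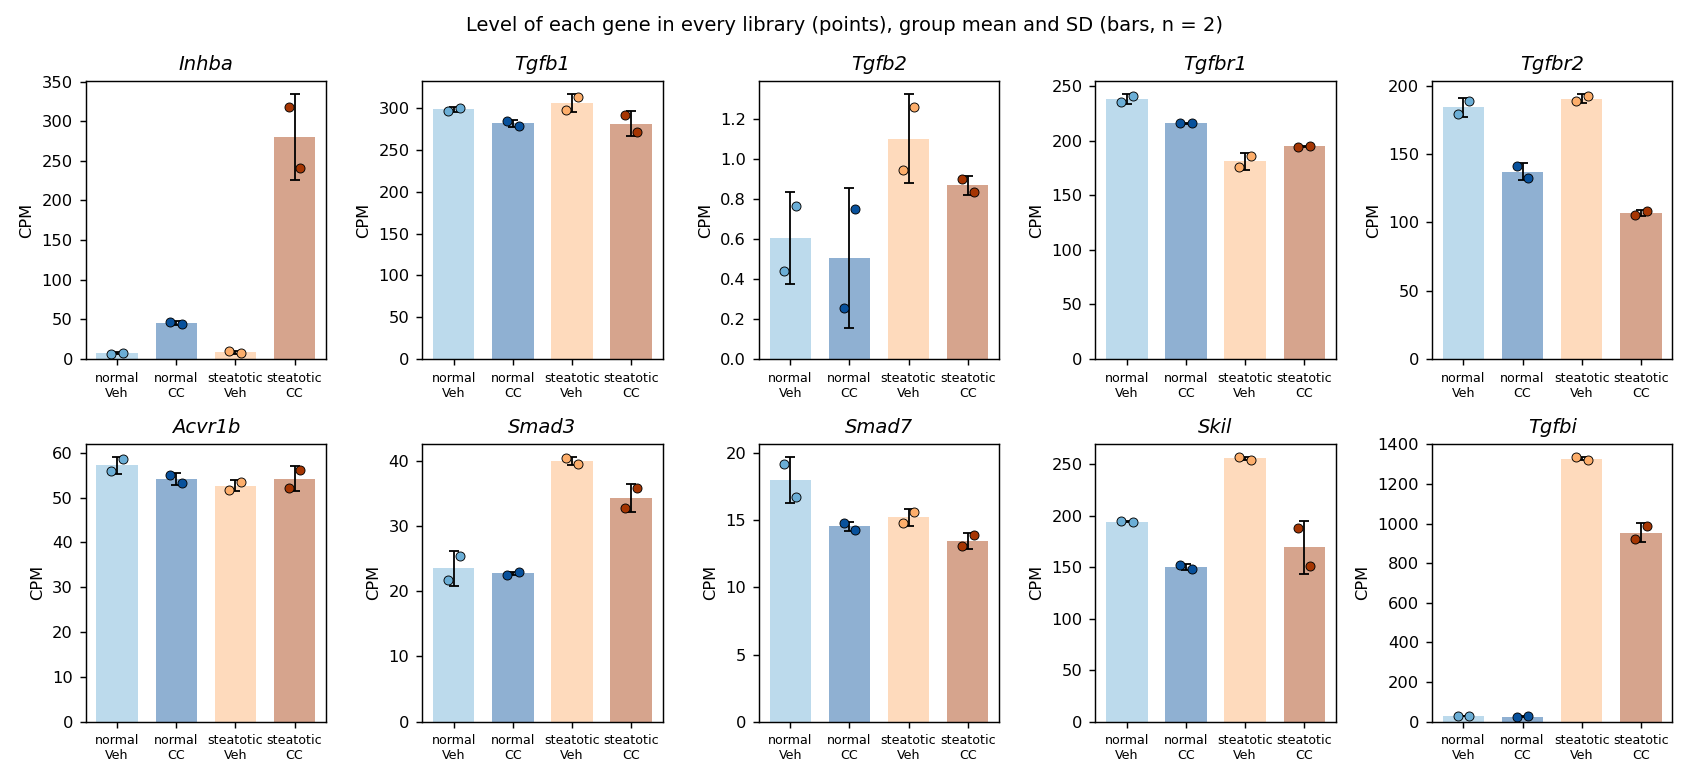
Level of each of the 10 genes in every library in CPM (points), with group means (bars) and SD (error bars, n = 2), on a separate linear axis for each gene. *Inhba* is highest in the 2 libraries labelled steatotic with CC (318 and 241 CPM), *Tgfbi* is high with Veh and with CC when labelled steatotic, and *Tgfbr2* and *Skil* are lower with CC with either label.

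*Tgfbr2*, the type II receptor of TGF-beta, fell with CC in macrophages of both labels, and the fall was larger with the label steatotic. With the label normal its level was 179 and 189 CPM with Veh and 141 and 133 CPM with CC. In those labelled steatotic it was 188 and 193 CPM with Veh and 105 and 108 CPM with CC. The CC and Veh libraries did not overlap with either label, and the steatotic CC libraries were the lowest of all. The log2 change was −0.43 (SE 0.0481, adjusted p = 0.00133) with the label normal and −0.83 (SE 0.0484, adjusted p = 2.14e-05) with the label steatotic, a level 1.34-fold and 1.78-fold lower. The difference between these responses was −0.41 (95% interval −0.57 to −0.25, adjusted p = 0.0215). This last call was lost without the normal Veh library 1 (adjusted p = 0.0643), the normal CC library 1 (0.0694), the steatotic Veh library 1 (0.0574) or 2 (0.0832), or the steatotic CC library 1 (0.0621), while its value stayed between −0.46 and −0.36. With Veh alone the livers differed by 0.05 (−0.06 to 0.16, adjusted p = 0.488), and with CC the level was lower with the label steatotic (−0.36, adjusted p = 0.00122).

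*Tgfbr1*, the type I receptor of TGF-beta, was lower with the label steatotic. With Veh its level was 235 and 241 CPM with the label normal and 176 and 186 CPM with the label steatotic, with no overlap. The log2 difference was −0.40 (SE 0.0410, adjusted p = 0.000276), or 1.32-fold. With CC the libraries held 216 and 216 CPM with the label normal and 194 and 195 CPM with the label steatotic. This smaller difference of −0.15 (adjusted p = 0.0292) was lost without the normal CC library 1 (adjusted p = 0.102) or 2 (0.110), without the steatotic CC library 1 (0.0932) or 2 (0.0831), and with DESeq2 (0.0550). The changes of *Tgfbr1* with CC did not pass the threshold, at −0.14 (adjusted p = 0.0717) and 0.11 (adjusted p = 0.112), nor did the difference between them (0.25, 95% interval 0.11 to 0.38, adjusted p = 0.0759). *Acvr1b*, the type I receptor of activin, ranged from 51.8 to 58.5 CPM over all 8 libraries. Its 95% intervals were −0.25 to 0.02 between the livers with Veh, −0.22 to 0.06 for CC with the label normal and −0.10 to 0.18 for CC with the label steatotic, and the adjusted p-values were 0.170, 0.461 and 0.691.

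*Smad3*, the receptor-regulated SMAD that carries TGF-beta and activin signals, was higher with the label steatotic. With Veh it was 21.7 and 25.4 CPM with the label normal and 40.4 and 39.6 CPM with the label steatotic. With CC it was 22.5 and 22.9 CPM against 32.8 and 35.8 CPM. All 4 libraries labelled steatotic thus exceeded all 4 labelled normal, by 0.77 on the log2 scale with Veh (SE 0.0906, adjusted p = 0.000552, 1.70-fold) and by 0.60 with CC (adjusted p = 0.00226, 1.51-fold). CC changed *Smad3* by −0.05 (adjusted p = 0.797) and −0.22 (adjusted p = 0.133), neither past the threshold.

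*Smad7*, an inhibitory SMAD that is itself a target of the pathway, was 13.1 to 19.2 CPM. Its highest values were the normal Veh libraries, at 19.2 and 16.8 CPM. No comparison passed the threshold, with adjusted p-values of 0.0974 for the livers with Veh (−0.24), 0.0881 for CC with the label normal (−0.31) and 0.259 for CC with the label steatotic (−0.17).

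*Skil*, whose product SnoN represses SMAD-driven transcription, was lower with CC with both labels and higher with the label steatotic when given Veh. It was 195 and 194 CPM with Veh and 152 and 148 CPM with CC with the label normal. With the label steatotic it was 257 and 255 CPM with Veh and 188 and 151 CPM with CC, and these CC libraries stood further apart than those of any other group. The log2 change with CC was −0.60 (SE 0.0917, adjusted p = 0.00370) with the label steatotic. With the label normal it was −0.37 (SE 0.0916, adjusted p = 0.0442). That call was lost without the normal Veh library 1 (adjusted p = 0.173) or 2 (0.158), the normal CC library 1 (0.152) or 2 (0.186), or the steatotic Veh library 1 (0.0824) or 2 (0.0817). With Veh the livers differed by 0.40 (SE 0.0915, adjusted p = 0.0166), which was lost without any one of the 4 Veh libraries (adjusted p = 0.0853 and 0.0822 for the normal ones, 0.0740 and 0.0674 for the steatotic ones). The responses to CC differed by −0.22 (95% interval −0.53 to 0.09, adjusted p = 0.526), but by −0.39 (adjusted p = 0.0225) without the steatotic CC library 1. With CC the livers differed by 0.17 (adjusted p = 0.214), and by 0.32 (adjusted p = 0.00300) without the steatotic CC library 2.

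**Figure D2:**
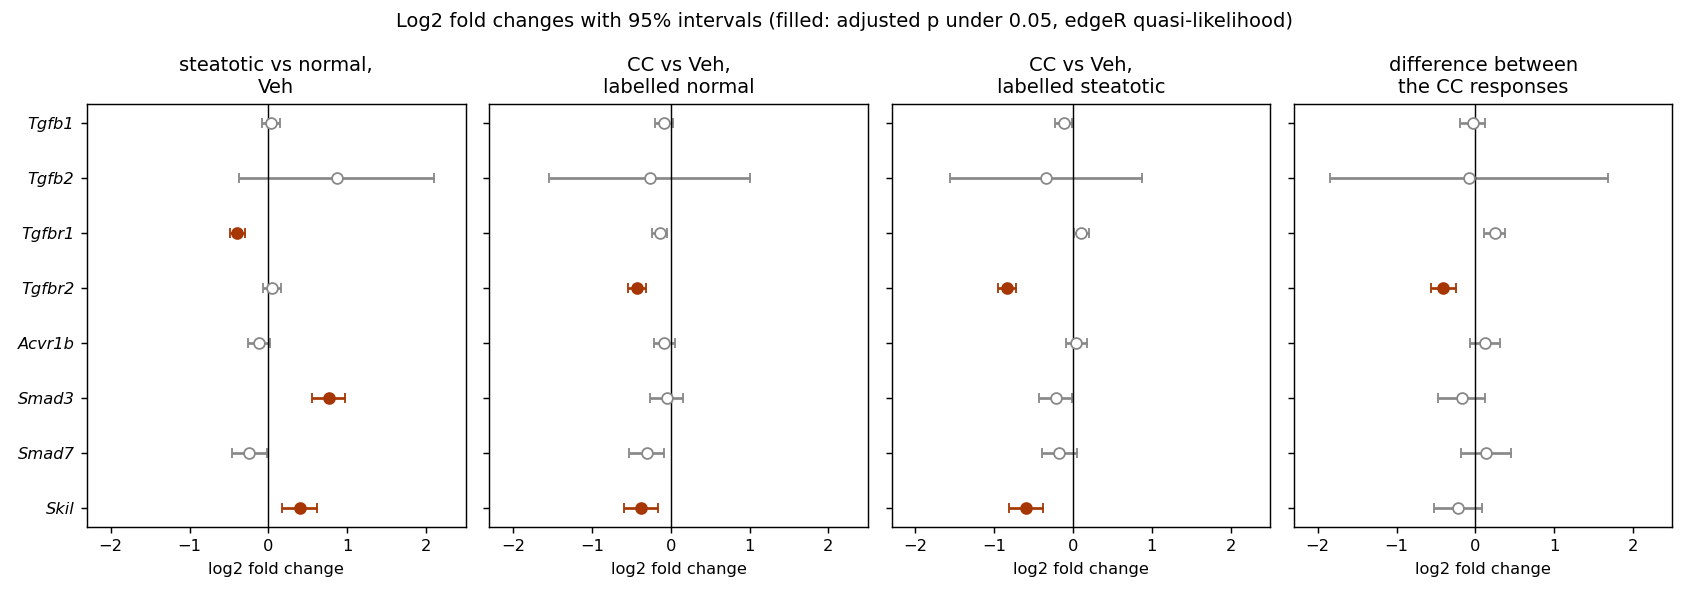
Log2 fold changes of the 8 tested genes (points) with 95% intervals (bars) in 4 comparisons, filled where the adjusted p by edgeR's quasi-likelihood test was under 0.05. *Tgfbr2* lies below 0 in both responses to CC and in their difference, *Smad3* (0.77) above and *Tgfbr1* (−0.40) below 0 for the livers with Veh, and the intervals of *Tgfb2* are by far the widest.

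Of the 8 tested genes, 2 were higher (*Smad3*, *Skil*) and 1 was lower (*Tgfbr1*) with the label steatotic at Veh, where 30.7% of all tested genes were called, 16.4% higher and 14.3% lower. With CC, 2 fell (*Tgfbr2*, *Skil*) and none rose with the label normal, where 11.8% of all tested genes were called, 5.54% lower and 6.27% higher. The same pair fell and none rose with the label steatotic, where 22.9% were called, 10.9% lower and 12.0% higher. For the difference between the responses 1 gene was lower (*Tgfbr2*), where 3.22% of all genes were called and 1.27% were lower. With CC, 1 was higher (*Smad3*) and 2 were lower (*Tgfbr1*, *Tgfbr2*) with the label steatotic, where 28.8% of all genes were called, 15.9% higher and 12.9% lower. The median log2 fold changes of the 8 genes were 0.04, −0.20, −0.20, −0.06 and 0.00 in these comparisons in turn, and those of all tested genes were between −0.01 and 0.01. The comparisons share libraries, as the normal Veh libraries served both the livers and the CC response, so they are not independent of each other.

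*Tgfbi* encodes a secreted protein that binds collagens and integrins. In the table it is ENSMUSG00000035493.10, on chromosome 13 of GRCm38 from 56609523 to 56639562 on the plus strand. It was 27.7 and 29.9 CPM with Veh and 26.1 and 26.6 CPM with CC when labelled normal. With the label steatotic it was 1334 and 1322 CPM with Veh and 921 and 988 CPM with CC. No library labelled steatotic came near one labelled normal, and the CC libraries lay below the Veh libraries with each label. The fitted log2 difference between the livers was 5.53 (46.1-fold) with Veh and 5.18 (36.2-fold) with CC, and the changes with CC were −0.13 and −0.48. *Inhba* and *Tgfbi* thus stood out in different comparisons. *Inhba* was nearly level between the livers with Veh (0.24) and high with CC, and *Tgfbi* was high with the label steatotic and somewhat lower with CC.

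Levels of different genes were compared per kb of merged exons, as CPM per kb. With the label normal and Veh, *Tgfb1* was the highest (59.2 CPM per kb), followed by *Tgfbr1* (36.5), *Tgfbr2* (22.5), *Skil* (20.1), *Acvr1b* (12.9), *Tgfbi* (7.64), *Smad3* (4.24), *Smad7* (3.98), *Inhba* (1.14) and *Tgfb2* (0.104). In that order only the ranges of *Smad3* and *Smad7* overlapped. With CC, *Inhba* moved from the ninth to the sixth place (7.12) with overlap of its range with that of *Tgfbi* (6.99). With the label steatotic and Veh, *Tgfbi* was first (352), *Tgfb1* second (60.7), and *Inhba* again ninth (1.35). With CC in these cells *Inhba* was in the third place (43.8 ± 8.51, SD, n = 2), after *Tgfbi* (253) and *Tgfb1* (55.8), above *Tgfbr1* (29.8) and with no overlap with either neighbour. *Tgfb2* was the lowest in every group.

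**Figure D3:**
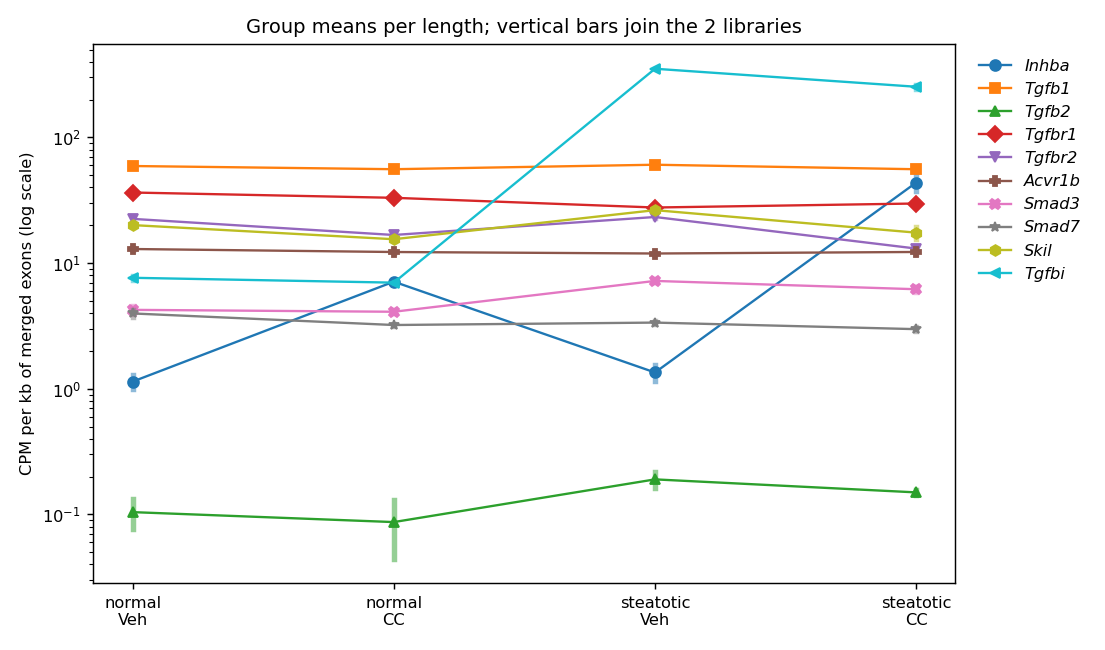
Group means of the 10 genes in CPM per kb of merged exons on a log axis, with vertical bars joining the 2 libraries and lines joining the groups of each gene. *Inhba* goes from 1.35 with Veh to 43.8 with CC with the label steatotic, *Tgfbi* lies above all others with that label, and the other lines move less.

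The genes whose profile over the 8 libraries was most like that of *Inhba*, by Pearson correlation of log2 CPM among 9993 genes, were *Ly75* (r = 0.999), *Il7r* (0.996), *Car13* (0.995), *St3gal1* (0.995) and *Pde4b* (0.995). *Il7r*, the interleukin 7 receptor, had means of 164 and 339 CPM with Veh and CC with the label normal and 163 and 608 CPM with the label steatotic. *Ly75*, an endocytic receptor, went from 2.42 to 6.60 and from 2.86 to 18.0 CPM. For *Tgfbi* the nearest were *Gm36161* (1.00), *Arhgef10l* (0.999), *Rpl34-ps1* (0.999), *Ms4a4c* (0.999) and *Zc3h12d* (0.998). *Ms4a4c* had means of 104 and 87.7 CPM with the label normal and 924 and 737 CPM with the label steatotic. *Rpl34-ps1* is a processed pseudogene whose reads may come from its parent gene, so its value is uncertain. All of these share the same 8 libraries and their 4 groups, and the values are a description.

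The rest of the pathway was taken from 7 lists of ligands, ligand storage and activation genes, ligand antagonists, receptors and co-receptors, SMAD proteins, SMAD regulators and TGF-beta target genes. Of 89 genes found in the table, 67 passed the filter of 0.5 CPM in at least 1 library. The 22 that did not included *Inha* (0 counts), *Fst*, which encodes the activin antagonist follistatin (at most 0.287 CPM), *Bmp4*, *Col1a1* and *Col1a2* (each under 0.4 CPM in all libraries). With the label steatotic at Veh, 24 of the 67 were higher and 14 lower, where 16.4% and 14.3% of all tested genes were. With CC, 9 were higher and 6 lower with the label normal (6.27% and 5.54% of all tested genes), and 16 higher and 9 lower with the label steatotic (12.0% and 10.9%). The same shares are the background of the counts by list that follow. The medians over the 67 genes were 0.16, 0.06 and 0.08 on the log2 scale, beside −0.01, 0.00 and 0.00 over all tested genes. Of these 38, 15 and 25 calls, 27, 8 and 17 held under every alternative that gave a value, and the genes named next are among those that held unless stated. A low gene that passed the filter only through the group where it was high had to differ. At Veh, 2 of the 24 called higher and 2 of the 14 called lower had no library at 0.5 CPM in the group where they were lower, as had 239 of 2489 and 141 of 2176 among all tested genes. The same was so for 1 of the 16 called higher with CC with the label steatotic.

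Among the other ligands, 2 of 6 tested were higher and 2 lower with the label steatotic at Veh (16.4% and 14.3% of all tested genes). The call of *Bmp2*, a bone morphogenetic protein that was 1 of those lower (−1.04, adjusted p = 0.0191), was lost without the normal Veh library 2 (adjusted p = 0.0896) or the steatotic Veh library 1 (0.0911). *Gdf3*, a ligand related to activin, had a mean of 47.6 against 2.29 CPM (log2 fold change 4.37, SE 0.144, adjusted p = 1.18e-06). *Gdf15*, a stress-induced member of the family, was lower, at 7.67 against 56.2 CPM (−2.87, SE 0.159, adjusted p = 3.67e-05). With CC, *Gdf15* rose to 28.2 CPM with the label steatotic (1.88, SE 0.154, adjusted p = 0.000297). With the label normal it rose from 56.2 to 117 CPM (1.05, adjusted p = 0.00617), a call lost without the normal Veh library 1 (adjusted p = 0.0545). With CC and the label steatotic, *Tgfb3* (−1.22, adjusted p = 0.0161) and *Gdf3* (−0.50, adjusted p = 0.0231) were lower. The call of *Tgfb3* was lost without either steatotic Veh library or the steatotic CC library 1 (adjusted p up to 0.0931), and that of *Gdf3* without any one of the 4 libraries compared (up to 0.126). Between the livers with Veh, *Tgfb3* was at 3.47 with the label steatotic against 1.22 CPM (1.51, SE 0.279, adjusted p = 0.00508).

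With the label steatotic at Veh, 7 of 13 tested genes that store latent TGF-beta or release it were higher and none lower. Of all tested genes, 16.4% were higher and 14.3% lower. The median of the 13 was 0.67, the value of *Itgb6*, which was near the filter at 0.890 against 0.558 CPM and was not called (adjusted p = 0.273). *Ltbp3* and *Lrrc32*, 2 of the 7, did not reach 0.5 CPM in a normal Veh library and passed the filter through other groups. They do not add to that count or median as evidence, and *Lrrc32* and *Itgb6* were named after their values were seen. *Thbs1*, whose product thrombospondin 1 activates latent TGF-beta, was at 210 against 23.8 CPM (3.14, SE 0.0756, adjusted p = 3.96e-07). With CC it rose to 493 CPM with the label steatotic (1.23, SE 0.0700, adjusted p = 1.99e-05). *Itgb5* and *Itgav*, which encode an integrin pair that binds latent TGF-beta, were higher with the label steatotic at Veh by 0.97 and 0.32. Both fell with CC, *Itgb5* from 125 to 74.4 CPM with the label normal (−0.74) and from 243 to 101 CPM with the label steatotic (−1.27), and *Itgav* by −0.28 and −0.65. In the list as a whole, 3 were higher and 3 lower with CC with the label steatotic. The calls of 2 of those higher (*Ltbp2*, *Itgb8*) and 1 of those lower (*Itgb1*) were lost without at least 1 library, and *Itgb8* and *Itgb1* were named after their values were seen.

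Among antagonists, *Dcn*, whose product decorin binds TGF-beta in the matrix, was the one gene of 5 tested that passed with CC. Its means were 2.05 and 6.35 CPM with Veh and CC with the label normal and 19.2 and 124 CPM with the label steatotic, and all 3 comparisons passed (3.22 for the livers at Veh, 1.63 and 2.69 for CC, adjusted p = 1.66e-05, 0.00116 and 3.63e-05). *Dcn* is also a marker of stellate cells and fibroblasts. The 8 other markers of that list, the fibrillar collagens included, summed to at most 1.24 CPM in any library.

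Of 10 tested receptors and co-receptors, 4 were higher and 1 was lower with the label steatotic at Veh (16.4% and 14.3% of all tested genes). The calls of 2 of those higher, *Bambi* and *Tgfbr3*, were lost without 1 library (adjusted p up to 0.230 and 0.167), and *Tgfbr3* was named after its values were seen. *Bmpr1a*, a type I receptor for bone morphogenetic proteins, was lower at 12.4 against 43.8 CPM (−1.82, SE 0.112, adjusted p = 2.03e-05), and *Eng*, which encodes the co-receptor endoglin, was higher at 58.1 against 30.0 CPM (0.96, adjusted p = 0.000104). *Cd109*, a co-receptor that inhibits TGF-beta signaling, rose with CC from 16.1 to 38.6 CPM with the label steatotic (1.26, adjusted p = 0.000297). Of 6 other SMAD genes, 1 was higher and 2 were lower with the label steatotic at Veh. *Smad6*, an inhibitory SMAD, was at 19.1 against 28.0 CPM (−0.55, adjusted p = 0.00163). The calls of *Smad1* and of *Smad9*, the latter named after its values were seen, were lost without at least 1 library, and *Smad9* was under 0.5 CPM in both steatotic Veh libraries.

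Among 13 SMAD regulators, 2 were higher and 5 lower with the label steatotic at Veh (16.4% and 14.3% of all tested genes). The calls of *Ski* among the higher and of *Tgif1*, *Nedd4l* and *Trim33* among the lower were lost without 1 library (adjusted p up to 0.169, 0.0741, 0.155 and 0.215), and *Ski* and *Trim33* were named after their values were seen. With CC, 2 rose with the label normal and 3 with the label steatotic, and none fell. *Smurf1* and *Nedd4l*, ubiquitin ligases that act on SMADs and receptors, were the pair that rose with both labels. *Smurf1* rose from 47.6 to 71.0 CPM (0.58, adjusted p = 0.00136) and from 34.0 to 64.2 CPM (0.92, adjusted p = 5.95e-05), and *Nedd4l* by 0.98 and 0.94 (adjusted p = 0.000576 and 0.000280). *Pmepa1*, a feedback inhibitor, was lower with the label steatotic at Veh (13.8 against 28.0 CPM, −1.02, adjusted p = 0.000758).

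The 14 tested target genes did not move one way. With the label steatotic at Veh, 7 were higher and 3 lower (16.4% and 14.3% of all tested genes). Those higher included *Vcan* (2.88), *Ccn2* (1.51) and *Fn1* (1.33), which encode matrix or matrix-associated proteins. The 3 that were lower included *Bhlhe40*, a transcriptional repressor (−1.62), and *Cdkn2b*, a cell cycle inhibitor (−1.01). *Bhlhe40* rose with CC from 128 to 219 CPM with the label normal (0.77, adjusted p = 0.000545) and from 41.7 to 202 CPM with the label steatotic (2.28, adjusted p = 2.51e-06). *Id2* rose with CC with both labels (0.64 and 0.71) while *Id3* fell (−0.50 and −0.73). These encode related inhibitors of transcription factors. *Fn1* and *Id3* were named after their values were seen. *Ccn2* did not pass the threshold with CC, at −0.17 with the label normal and −0.14 with the label steatotic (adjusted p = 0.354 and 0.394).

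**Figure D4:**
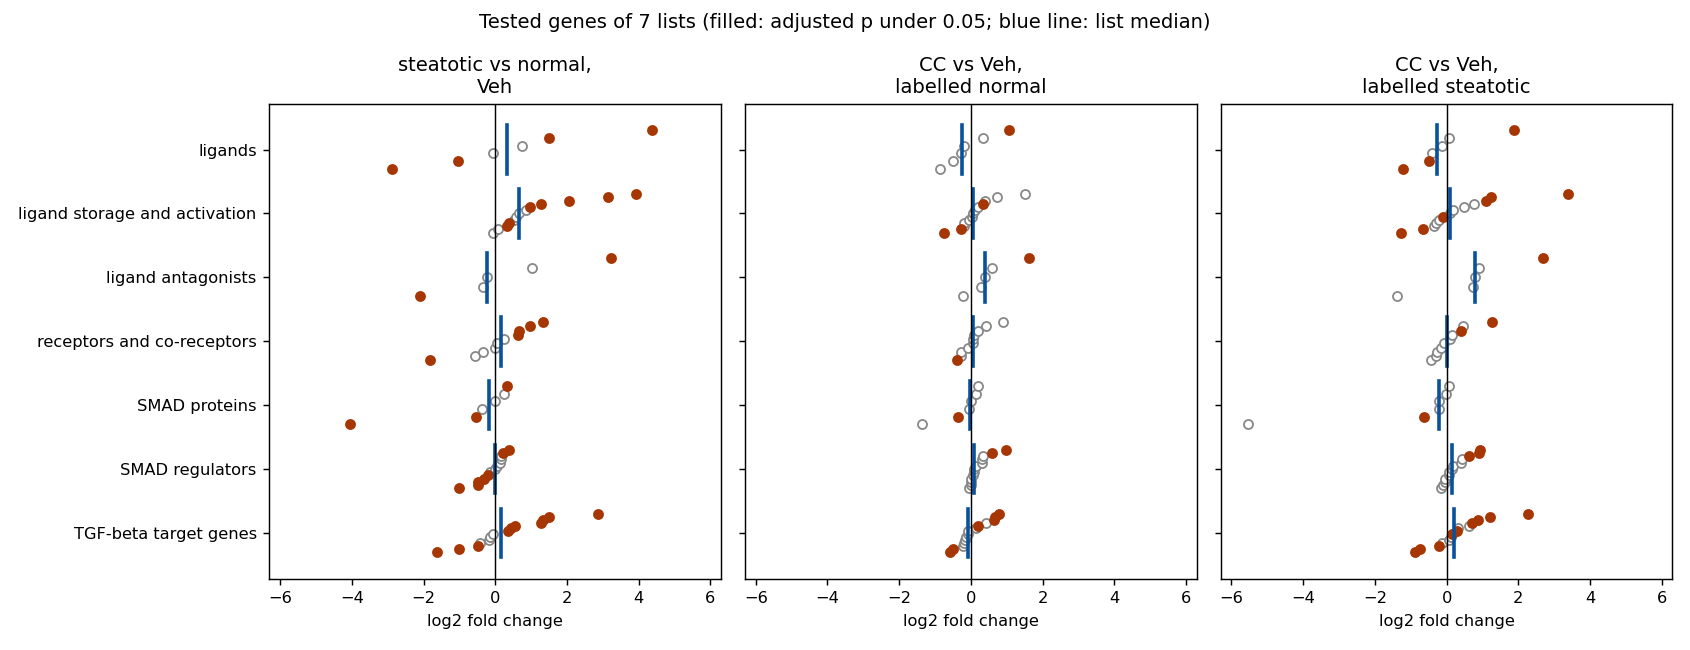
Log2 fold changes of the 67 tested genes of the 7 lists (points, filled where the adjusted p was under 0.05) with the list medians (blue lines) in 3 comparisons. Storage and activation genes lie mostly above 0 for the livers with Veh (median 0.67). That median includes *Ltbp3* and *Lrrc32*, which were under 0.5 CPM in the normal Veh libraries. Among the target genes, filled points stand on both sides of 0 in all 3 panels.

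The test of the difference between the responses to CC called 6 of the 67 genes higher and 4 lower, where 1.95% and 1.27% of all tested genes were. *Vcan*, which encodes the proteoglycan versican, rose with CC with the label steatotic from 15.5 to 36.1 CPM and was at 2.11 and 1.40 CPM with the label normal, a difference of 1.82 (SE 0.166, adjusted p = 0.00266). *Bhlhe40* differed by 1.50 (SE 0.101, adjusted p = 0.00110), *Thbs1* by 0.89 (adjusted p = 0.00531), *Itgb5* by −0.53 (adjusted p = 0.0113) and *Tgm2*, a crosslinking enzyme, by −0.42 (adjusted p = 0.00576). These 5 held under every alternative. *Tgm2* was higher with CC with the label normal, at 608 against 526 CPM (0.21, adjusted p = 0.00847), and lower with the label steatotic, at 661 against 767 CPM (−0.21, adjusted p = 0.00373), and the former call was lost without the normal Veh library 1 (adjusted p = 0.0527) or the normal CC library 2 (0.0623). *Acvrl1*, a type I receptor of the family, likewise was lower with CC with the label normal, at 46.5 against 60.3 CPM (−0.38, adjusted p = 0.0241), and higher with the label steatotic, at 123 against 93.2 CPM (0.40, adjusted p = 0.0102), and both calls were lost without at least 1 library (adjusted p up to 0.119 and 0.0740). The calls of *Acvrl1*, *Cd109*, *Cdkn1a*, *Id1* and *Itgav* were lost without at least 1 library. *Tgm2* and *Cdkn1a* were named after their values were seen. With CC, 26 of the 67 genes were higher and 11 lower with the label steatotic than with the label normal, where 15.9% and 12.9% of all tested genes were, and 22 of these 37 calls held under every alternative. Of the 11, 1 (*Smad9*) had no library at 0.5 CPM in the group where it was lower, as had 109 of 1966 among all tested genes.

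The markers of macrophages were high in all 8 libraries, with a sum over 6 genes of 9669 to 15225 CPM. The sum differed between the labels, at 14801 to 15225 CPM with the label normal and 10987 to 11150 CPM with the label steatotic at Veh, where 3 of the 6 were called higher and 2 lower. The 6 markers of Kupffer cells, the resident macrophages of the liver, summed to 2681 to 2720 CPM and 3925 to 3997 CPM at Veh, with 3 called higher and 3 lower.

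Markers of other cells also differed between the labels, as *Tgfbi* did. The sum over 6 monocyte markers was 10.3 to 11.4 CPM with the label normal and 90.8 to 126 CPM with the label steatotic, and 5 of the 6 were called higher at Veh, 1 of them (*Chil3*, named after its values were seen) with no normal Veh library at 0.5 CPM. The sum over 8 T and natural killer cell markers was 1.67 to 2.20 CPM and 15.0 to 19.3 CPM, and that over 8 hepatocyte markers was 50.7 to 59.4 CPM and 1.85 to 2.67 CPM. For these last lists the number of calls is not evidence, since 7 of the 8 called T or natural killer cell markers and 5 of the 6 called hepatocyte markers did not reach 0.5 CPM in the group where they were lower. The sum over 7 sinusoidal endothelial markers was 150 to 159 CPM with the label normal and 253 to 262 CPM with the label steatotic at Veh, with 3 of 6 tested called higher and 1 lower. At Veh the cholangiocyte sum was 5.51 to 7.68 CPM and 10.0 to 11.4 CPM, with 1 of 4 tested called higher and none lower. The dendritic cell sum at Veh was 4.79 to 4.82 CPM and 8.31 to 8.48 CPM, but its markers did not move together. Of 5 tested, 1 was called higher and 2 lower, 1 of these with no steatotic Veh library at 0.5 CPM, and the median was −0.45. The higher sum came from *Xcr1* (1.06 to 6.55 CPM), named after its values were seen. The part of these cells in the differences of *Tgfbi*, *Smad3*, *Tgfbr1* and the lists between the livers was not tested, and in these bulk libraries fewer cells of a type and less RNA per cell cannot be told apart.

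Some marker lists moved with CC. Of the macrophage markers, 5 of 6 fell with the label normal (to a sum of 12146 to 12315 CPM) and 4 of 6 with the label steatotic (to 9669 to 10469 CPM), where 1 was called higher (*Cd68*, 2089 to 2348 CPM). Of the Kupffer cell markers, 4 of 6 fell with the label normal (to 2149 to 2365 CPM) and 5 of 6 with the label steatotic (to 2599 to 3105 CPM), where 1 was called higher (*Marco*, 93.5 to 153 CPM). *Cd68* and *Marco* were named after their values were seen. The neutrophil sum was higher with CC, as *Inhba* was, at 8.88 to 9.69 CPM with Veh and 14.4 to 14.9 CPM with CC with the label normal, and at 4.44 to 5.54 CPM and 18.8 to 19.9 CPM with the label steatotic. Nearly all of it was *S100a8*, the one gene of that list that was tested and named after its values were seen, which was called higher with CC with both labels and in the test of the difference between the responses. *Ly6g*, a defining neutrophil marker, had 0 counts in all libraries. The endothelial sum with CC was 183 to 186 CPM with the label normal and 233 to 245 CPM with the label steatotic. Of 6 tested endothelial markers, 1 was called higher with CC and none lower with the label normal. With the label steatotic 3 were called higher and 1 lower, and *Pecam1*, named after its values were seen, went from 95.8 to 38.8 CPM. The dendritic cell sum with CC was 8.66 to 9.47 CPM and 6.95 to 7.30 CPM, and the cholangiocyte sum 7.42 to 8.56 CPM and 10.99 to 14.0 CPM. No tested dendritic cell or cholangiocyte marker was called with CC with either label. The B cell sum was 2.34 to 2.90 CPM over the Veh libraries and 0.871 to 1.79 CPM over the CC libraries. Of 3 tested B cell markers, none was called with CC with the label normal and 1 was called lower with the label steatotic. The part of these lists in the fall of *Tgfbr2* and *Skil* and in the higher *Inhba* was not tested.

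**Figure D5:**
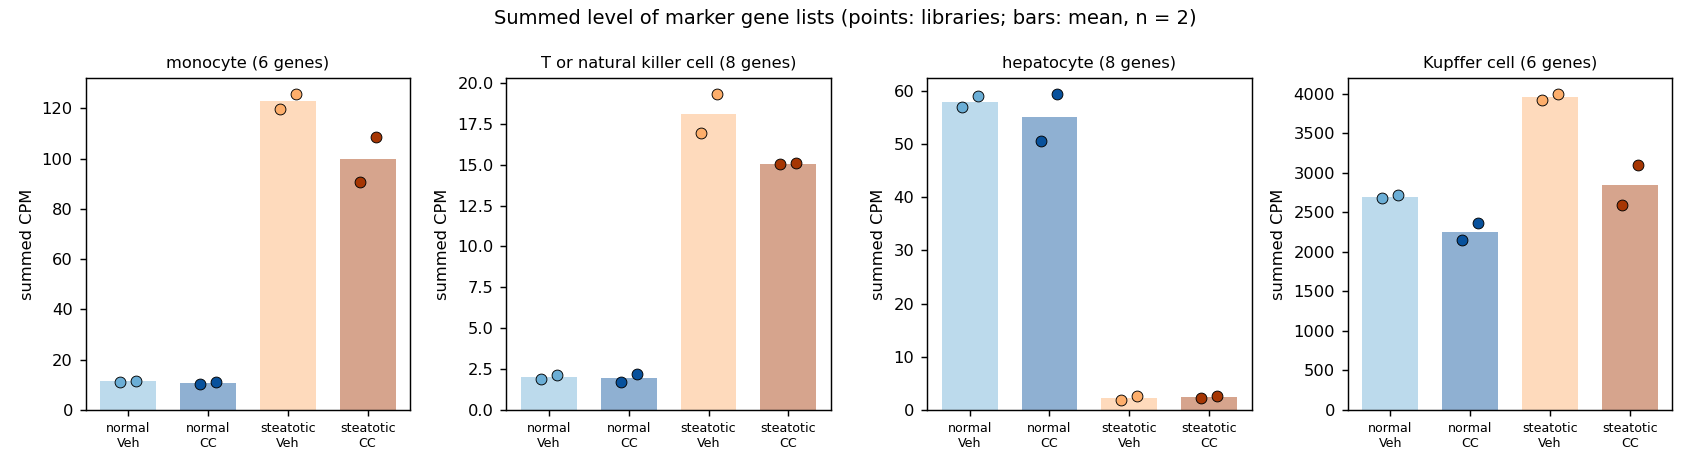
Summed CPM of 4 marker lists in every library (points) with group means (bars, n = 2), on a separate linear axis for each list. Monocyte and T or natural killer cell sums are higher and hepatocyte sums lower with the label steatotic, and the Kupffer cell sum is lower with CC than with Veh for each label.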

How the data were processed

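Poly(A) RNA of 8 macrophage libraries, 2 per group, was sequenced as 150 bp paired ends with a directional kit. Per the labels and methods, fastp trimmed the reads, HISAT2 placed them on mm10 and StringTie quantified genes (versions not given in the sources used here). The authors deposited 1 table of estimated counts from this quantification, not normalized. The values are whole numbers, so none was rounded, and 1 fragment was inferred to give about 4 counts from an excess of multiples of 4 among small values. Groups came from the sample titles.

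Of 28711 genes with any count, the 15202 that reached 0.5 CPM in 1 or more libraries were tested with edgeR 4.0.16 in R 4.3.3 (TMM factors 0.981 to 1.03, glmQLFit with robust estimation, glmQLFTest) in 1 model with 4 group means and no block. Adjusted p-values (Benjamini-Hochberg, over every tested gene) had a threshold of 0.05. For edgeR, the SE was derived from the test, as the absolute log2 fold change divided by the square root of its F statistic. The 95% intervals used this SE and the quasi-likelihood degrees of freedom. The common coefficient of biological variation was 0.171. The edgeR comparisons and a DESeq2 comparison were first run on simulated counts with known changes, and the other steps were not. Positions and exon lengths came from GENCODE release M21 (GRCm38), and promoter windows from RefSeq for 8 of the 10 genes.

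The genes and lists were chosen with earlier results of these data known. By rule, up to 3 genes per list and comparison with the largest change and a mean of at least 1 CPM were named, and for *Inhba* and *Tgfbi* the 5 genes of at least 5 CPM with the most similar profile. Not every gene that the rule named is reported here. Alternatives were DESeq2 1.42.0, its size factors, library size only, 2 other filters, a prior count of 4, counts divided by 4, the replicate number as a block, the 4 compared libraries alone and leaving out each library. Leaving out 1 library leaves its group with a lone library, assumed to vary like the other groups.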

Additional observations from a re-analysis of the deposited data

Results flagged for a closer look

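The genes that follow passed a test of the difference between the 2 responses to CC (edgeR's quasi-likelihood test, adjusted over all 15202 genes, steatotic minus normal on the log2 scale). *Tgfbr2* differed by −0.41 (adjusted p = 0.0215), with a fall in both labels. *Bhlhe40* differed by 1.50 (adjusted p = 0.00110) and *Vcan* by 1.82 (adjusted p = 0.00266). *Thbs1* differed by 0.89 (adjusted p = 0.00531) and *Tgm2* by −0.42 (adjusted p = 0.00576). *Itgb5* differed by −0.53 (adjusted p = 0.0113) and *Acvrl1* by 0.77 (adjusted p = 0.0130). *Id1* differed by −0.64 (adjusted p = 0.0216) and *Itgav* by −0.37 (adjusted p = 0.0249). *Cdkn1a* differed by 0.37 (adjusted p = 0.0255) and *Cd109* by 0.85 (adjusted p = 0.0472). *Tgm2* rose with CC with the label normal (0.21) and fell with the label steatotic (−0.21), and *Acvrl1* fell (−0.38) and rose (0.40). The calls of *Tgfbr2*, *Acvrl1*, *Id1*, *Itgav*, *Cdkn1a* and *Cd109* were lost without at least 1 library (adjusted p up to 0.0832, 0.0554, 0.0757, 0.0846, 0.0952 and 0.144). Groups of 2 libraries were too small for a search for outlying libraries.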

How the results depend on the processing

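Over 17 alternatives, 623 of 672 values of the 8 tested genes kept their direction and side of the threshold, 21 lost the call, 3 gained it and 25 changed sign, none of them called with all libraries or under the alternative. None of 168 values of *Inhba* and *Tgfbi* changed sign, but both genes were chosen for their large changes. With every gene with any count tested, *Skil* lost its call with CC with the label normal (adjusted p = 0.0567), leaving 1 of 8 called there. With library size only, *Tgfbr1* gained a call there (adjusted p = 0.0315). Leaving out 1 library gave 1014 to 1761 genes called for CC with the label normal (1795 with all libraries) with 1 to 2 of the 8, and 296 to 424 for the difference between the responses (490 with all) with 0 to 1 of the 8. The replicate numbers did not pair the libraries by the labels, and deviations of same-numbered libraries correlated by −0.0102 to 0.180. With the replicate number as a block, 4371, 1545, 3237, 400 and 4067 genes were called in the 5 comparisons in turn, with 3, 2, 2, 1 and 3 of the 8, and *Tgfb2* changed sign for the difference (0.0222).

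The other changes of sign were these log2 values. *Acvr1b* for the livers with CC was −0.0013 with DESeq2, −0.0015 with its size factors and with counts divided by 4, −0.0249 with library size only, −0.00019 with the block and −0.0080 with the 4 libraries alone, and −0.0526 to 0.0525 without 1 library. *Tgfb1* was −0.0115 for the livers with Veh with library size only (−0.0021 to 0.0706 without 1 library), 0.0074 for the livers with CC with every gene (−0.0555 to 0.0520) and −0.0896 to 0.0180 for the difference. Without 1 library, *Tgfb2* was −1.23 to 0.31 for CC with the label normal and −0.66 to 0.88 for the difference, *Smad3* −0.161 to 0.0722 for CC with the label normal, and *Acvr1b* −0.0132 to 0.0919 for CC with the label steatotic. The cause of these changes was not tested. Groups of 2 and the 0.161 to 0.205 CPM of 3 fragments limit statements on *Tgfb2*. No scaling moved the median of all genes by over 0.05.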
